A study of Mus musculus with 2 samples.

Results

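The clustered genes of the miR-23, miR-27 and miR-24 families were examined in small RNA sequencing of the mouse forebrain at embryonic day 14.5. They are Mir23a, Mir27a and Mir24-2, which lie together on chromosome 8, and Mir23b, Mir27b and the Mir3074-1 model, which lie together on chromosome 13. They were taken by name from the tables, and these 6 genes are all that were listed, out of 1973 miRNA genes counted. Mir24-1, the miR-24 gene of chromosome 13, has no row in the tables, and the Mir3074-1 model on the other strand of its position was read on both strands in its place. The study holds 1 group, forebrains of B6NCrl mouse embryos with no treatment named, in 2 libraries that are called replicates 1 and 2 here after their label. Each is said to come from 1 forebrain and the collection days differ, but the sex is given as pooled and the donor is the same for both. Part of the spread between the replicates may therefore be technical. Without another tissue, age or treatment there was no comparison of conditions to test.

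Each cluster makes a primary transcript that the Drosha complex cuts into hairpins, and Dicer then cuts each hairpin into a short duplex with a 5′ and a 3′ arm. The arm that is loaded into Argonaute represses mRNAs that pair with its seed, bases 2 to 8. The pair of clusters are paralogues that vertebrates share, and they are known from endothelial and blood cells, where miR-23 and miR-27 act in vessel growth. In the mouse brain miR-23 is known to repress lamin B1 in oligodendrocytes. The miR-27 family is known from muscle precursors, where it represses Pax3, and from fat cell formation, while miR-24 is known for targets in the cell cycle and the DNA damage response.

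The mature sequences are shown because they decide which reads could be assigned to a single gene. Reads that matched several places, 42.7% ± 0.822 of all reads (SD, n = 2), were set apart in the tables and counted for no gene. The sequences are from RefSeq on GRCm38.p6, 5′ to 3′, with the seed in capitals. The 3′ arms named after miR-23 and miR-27 are the main products known from these hairpins.
miR-23a-3p: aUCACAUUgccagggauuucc
miR-27a-3p: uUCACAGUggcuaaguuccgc
miR-27b-3p: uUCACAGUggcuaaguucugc
miR-24-3p: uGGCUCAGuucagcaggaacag
miR-24-2-5p: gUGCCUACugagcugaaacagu
miR-24-1-5p: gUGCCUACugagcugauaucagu
miR-3074-5p: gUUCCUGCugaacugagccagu

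miR-27a-3p and miR-27b-3p share their seed and differ at 1 base of 21, C19U, counted from the 5′ end with the base of miR-27a-3p first. A read of the first 18 bases therefore occurs in the hairpins of Mir27a and Mir27b alike, and a read of 19 bases or more in 1 of them. The same length holds for miR-23a-3p, whose first 18 bases also occur in the Mir23b hairpin. miR-24-3p, the main product of the miR-24 genes, lies whole in the hairpins of Mir24-1 and Mir24-2, which share a run of 28 bases, so no length of it points to 1 gene. The 5′ arms miR-24-2-5p and miR-24-1-5p have 1 seed and differ first at position 17, from which length each occurs in 1 hairpin. miR-3074-5p, from the strand opposite the miR-24 hairpins, also lies whole in 2 hairpins, those of Mir3074-1 and Mir3074-2. miR-23b-3p and miR-3074-1-3p are the arms not printed here.

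**Figure D1:**
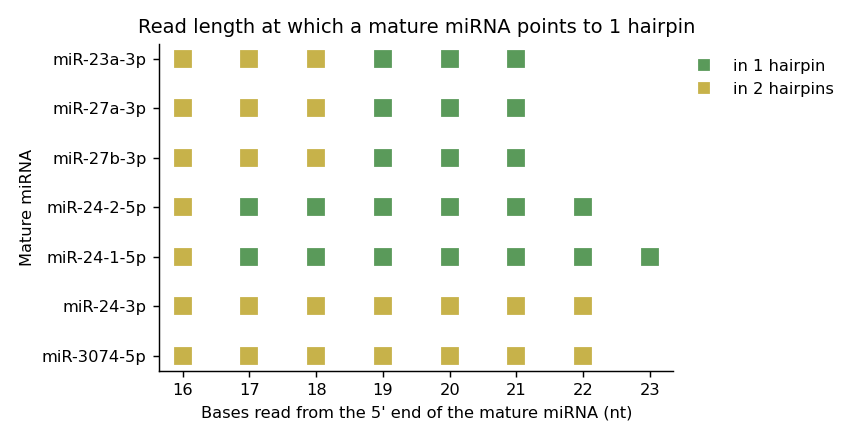
Number of RefSeq hairpins that contain the first bases of each mature miRNA (rows) as the read grows from 16 bases to the whole sequence (horizontal axis, nt); green marks 1 hairpin and yellow 2 hairpins. The 3′ arms of miR-23a, miR-27a and miR-27b turn unique at 19 bases, the 5′ arms of miR-24 at 17, and miR-24-3p and miR-3074-5p at none.

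The libraries held 18598385 reads in replicate 1 and 20638071 in replicate 2, of which 7080317 and 7946585 were counted on the strand of a miRNA gene. Levels are CPM, the count of a gene per 1000000 of those counts. Errors are standard deviations over 2 libraries, and intervals are for counting error only. The forebrain label was set against neural markers: Mir137 of neurons stood at 7955 and 7274 CPM and Mir92b of progenitors at 3407 and 2786 CPM in replicates 1 and 2. The other markers of neurons, Mir124a-1, Mir124a-2 and Mir124a-3, averaged 2.21, 1.78 and 0.464 CPM. Of the other progenitor markers Mir9-3 averaged 595 CPM and Mir9-2 5.00 CPM. Whether reads of these 5 genes match several places was not looked up, so a low CPM here need not mean little mature miRNA. Mir9-1 was not counted by name. The opposite strand of the Gm25641 model, where GENCODE M21 places it, had 502 and 433 counts in replicates 1 and 2, left out here.

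All 6 members were detected, which means 10 or more counts in each library, against 20.2% of the 1973 genes. Together they held 0.931% of the miRNA counts in replicate 1 and 1.07% in replicate 2, a mean of 1.00% ± 0.0997 (SD, n = 2). The miR-23 genes made up most of this sum in each cluster, while the miR-27 genes, Mir24-2 and the Mir3074-1 model stood far lower. Reads within miR-24-3p, which match both miR-24 hairpins, are not in this sum.

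Mir23b (ENSMUSG00000065599.1) was the highest, with 34669 and 42914 counts in replicates 1 and 2, or 4897 CPM (95% Poisson interval 4845 to 4948) and 5400 CPM (5349 to 5452). Its mean of 5148 ± 356 CPM (SD, n = 2) ranked 34 of 1973, above 91.5% of the detected genes. Mir23a (ENSMUSG00000065611.1) had 26563 and 37355 counts, or 3752 CPM (3707 to 3797) and 4701 CPM (4653 to 4749). Its mean was 4226 ± 671 CPM, at rank 41. The lower Mir23b library stood above the higher Mir23a library, and the means were 1.22-fold apart.

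Mir27b (ENSMUSG00000065475.1) followed with 2620 and 2863 counts in replicates 1 and 2, or 370 CPM (356 to 384) and 360 CPM (347 to 374). Its mean of 365 ± 6.90 CPM (SD, n = 2) ranked 121 and lay 11.6-fold below Mir23a. Mir27a (ENSMUSG00000065444.1) was the lowest member, with 328 and 349 counts, or 46.3 CPM (41.4 to 51.6) and 43.9 CPM (39.4 to 48.8). Its mean was 45.1 ± 1.70 CPM, at rank 231, above 42.1% of the detected genes. The miR-27 genes thus differed far more between the clusters than the miR-23 genes did.

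Mir24-2 (ENSMUSG00000065541.1) had 522 and 506 counts in replicates 1 and 2, or 73.7 CPM (67.5 to 80.3) and 63.7 CPM (58.2 to 69.5), with a mean of 68.7 ± 7.11 CPM (SD, n = 2) at rank 209. Since miR-24-3p cannot be told apart between its genes, these counts are not the level of miR-24. The Mir3074-1 model (ENSMUSG00000092741.1) had 1183 and 1163 counts on its own strand, or 167 CPM (158 to 177) and 146 CPM (138 to 155), with a mean of 157 ± 14.7 CPM at rank 167.

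From high to low the order was Mir23b, Mir23a, Mir27b, Mir3074-1, Mir24-2 and Mir27a in each library, and no pair of neighbours in that order overlapped over the libraries. The smallest steps were the 1.22-fold from Mir23b to Mir23a and the 1.52-fold from Mir24-2 to Mir27a. The places of Mir24-2 and the Mir3074-1 model rest on counts that lack reads within miR-24-3p and miR-3074-5p. They are an order of assigned reads, not of mature miRNA levels. The hairpins are 73 to 107 nt long, and CPM per hairpin base, from 69.6 for Mir23b to 0.519 for Mir27a, gave the same order. In bulk tissue, fewer cells of a type and less RNA per cell cannot be told apart.

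**Figure D2:**
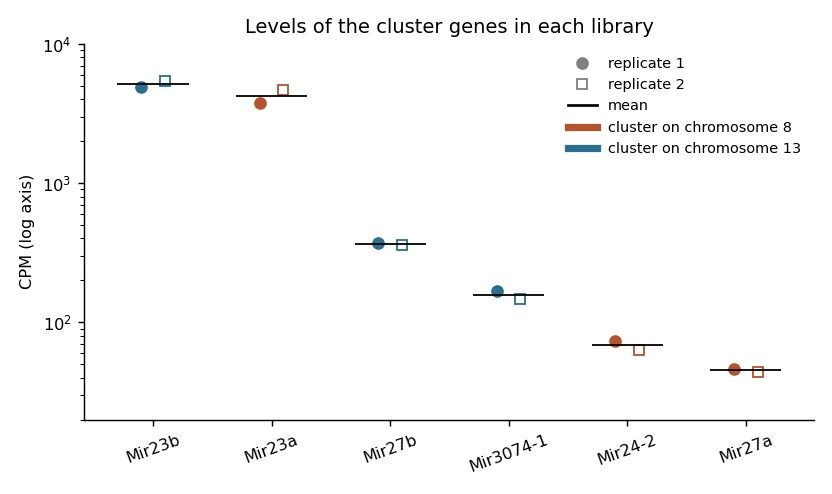
CPM (log axis) of each cluster gene in replicate 1 (filled circles) and replicate 2 (open squares), with the mean of the 2 libraries as a line; orange marks genes of chromosome 8 and blue those of chromosome 13. The miR-23 genes lie at 3752 to 5400 CPM and the other 4 members at 43.9 to 370 CPM.

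On mm10 the first cluster spans 404 nt of chromosome 8 on the plus strand, with Mir23a at chr8:84208518-84208592, Mir27a at chr8:84208672-84208758 and Mir24-2 at chr8:84208815-84208921. GENCODE M21 places Mir23a and Mir27a in no other gene. The last 2 bases of Mir24-2 overlap the exon of the non-coding gene Gm26532 on the same strand. The second cluster is longer, with 792 nt of chromosome 13 from Mir23b at chr13:63300484-63300557 over Mir27b at chr13:63300712-63300784 to Mir24-1 at chr13:63301208-63301275, all on the plus strand. It lies within 2010111I01Rik, the gene for aminopeptidase O, on the same strand, and within an intron of Fancc, a Fanconi anaemia gene, on the other. Mir23b falls in an intron of 2010111I01Rik, while Mir27b and Mir24-1 overlap annotated exons of that gene. Neighbouring hairpins are 79 and 56 nt apart in the first cluster and 154 and 423 nt apart in the second. No other miRNA gene of the tables lies within 10 kb of a member.

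Within the cluster of chromosome 8, Mir23a held 96.9% of the counts in replicate 1 (95% Wilson interval 96.7 to 97.1) and 97.8% in replicate 2 (97.6 to 97.9). Mir24-2 held 1.90% (1.75 to 2.07) and 1.32% (1.21 to 1.44), and Mir27a 1.20% (1.07 to 1.33) and 0.913% (0.823 to 1.01). Thus 81.0 and 107 counts of Mir23a fell on each count of Mir27a. Within the cluster of chromosome 13, Mir23b held 90.1% (89.8 to 90.4) and 91.4% (91.2 to 91.7), Mir27b 6.81% (6.56 to 7.07) and 6.10% (5.89 to 6.32), and the Mir3074-1 model 3.07% (2.91 to 3.25) and 2.48% (2.34 to 2.62). The model is counted here in place of Mir24-1, and the strand that its counts came from was not settled. In this cluster 13.2 and 15.0 counts of Mir23b fell on each count of Mir27b. The miR-23 hairpin thus had over 10-fold the counts of each neighbour in its cluster, while 1.59 and 1.45 counts of Mir24-2 fell on each count of Mir27a in replicates 1 and 2. Reads within miR-24-3p match both miR-24 hairpins and are in no gene count. These shares and ratios are therefore of assignable reads only, and do not compare the levels of miR-23 or miR-27 with that of miR-24.

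**Figure D3:**
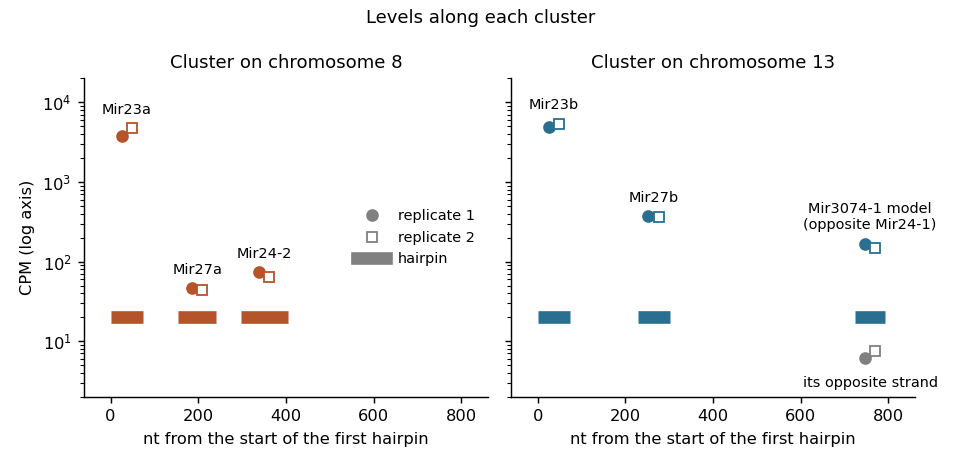
CPM (log axis) of each gene against its distance in nt from the start of the first hairpin of its cluster, with chromosome 8 left and chromosome 13 right; circles are replicate 1, open squares replicate 2 and bars, drawn at 1 fixed height, the extent of the hairpins. The first hairpin has the most assigned reads in each cluster, and the grey points at 6.07 and 7.42 CPM are the opposite strand of the Mir3074-1 model. M21 places that model on the strand opposite Mir24-1, and reads within miR-24-3p are in no point.

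Set against its paralogue in the same library, where depth cancels, Mir23a had 0.766 counts per count of Mir23b in replicate 1 (95% Wilson interval 0.754 to 0.779) and 0.870 in replicate 2 (0.858 to 0.883). These intervals do not overlap, so the balance of the miR-23 genes differed between the libraries by more than counting error. Mir27a had 0.125 (0.112 to 0.140) and 0.122 (0.109 to 0.136) counts per count of Mir27b, with overlapping intervals. For Mir24-2 the paralogue Mir24-1 was not counted by name, so the Mir3074-1 model at its position was used. Mir24-2 had 0.441 (0.398 to 0.489) and 0.435 (0.392 to 0.483) counts per count of this model, also overlapping. The strand that the model's counts came from was not settled, so this need not be a ratio of the miR-24 genes. Over the whole clusters the ratio of chromosome 8 to chromosome 13 was 0.713 in replicate 1 and 0.814 in replicate 2. The intervals of 0.702 to 0.724 and 0.803 to 0.825 do not overlap. The mean ratio, 0.763 with the Mir3074-1 model, was 0.785 without it. Mir23a and Mir27a thus had fewer counts than their paralogues, with the wider gap for miR-27. No test over samples was run on these ratios, since the smallest two-sided p of an exact sign-flip permutation test over 2 libraries is 0.5.

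Opposite-strand counts were next to absent at 5 members. Mir23a, Mir27a and Mir23b had 0, which at Mir23a allows up to 0.0113% of its counts in replicate 1 and 0.00803% in replicate 2. Mir27b had 2 and 0, and Mir24-2 had 3 and 2, at the position where M21 places Mir3074-2. The Mir3074-1 model had 43 counts on the opposite strand in replicate 1 and 59 in replicate 2. They made up 3.51% of its counts (95% Wilson interval 2.61 to 4.69) and 4.83% (3.76 to 6.18), or 6.07 and 7.42 CPM. In M21, which puts this model on the minus strand at chr13:63301199-63301283, that opposite strand is the strand of Mir24-1. The tables were made with M4 and carry an earlier version of this gene ID. The strand of the M4 model is not given in the sources used here, so which strand the 1183 and 1163 counts came from was not settled. Reads within miR-24-3p or miR-3074-5p match several hairpins and are in none of these counts. The counts and shares by strand are therefore not the output of Mir24-1, Mir3074-1 or Mir3074-2. M21 places a miRNA gene that the tables lack on the other strand of 28 models with 20 or more counts over the libraries. At 11 of them most counts were on the opposite strand, and at 17, Mir3074-1 and Mir24-2 among them, most were on the model's own strand.

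**Figure D4:**
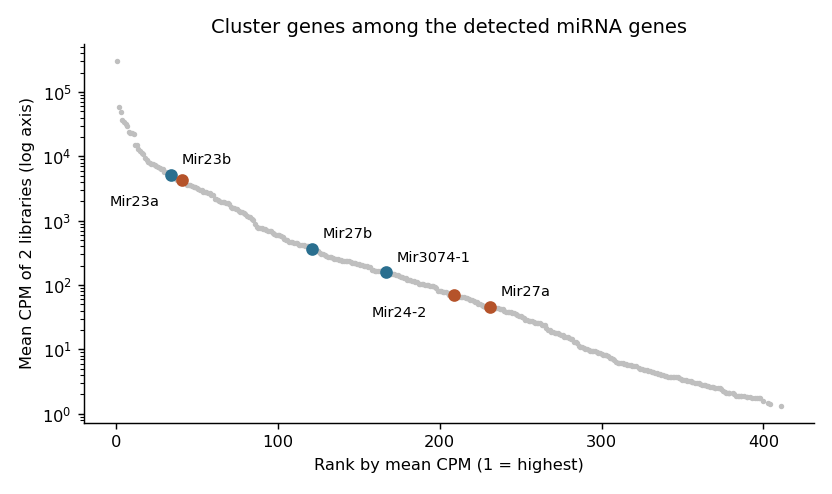
Mean CPM over the 2 libraries (log axis) against rank for the detected miRNA genes (grey points), with the cluster genes of chromosome 8 in orange and of chromosome 13 in blue. Mir23b and Mir23a stand at ranks 34 and 41, and the other members between ranks 121 and 231.

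Beside other genes, the closest levels over the 2 libraries were those of Mir744 and Mir411 for Mir23b, at 0.19 and 0.22 log2 units, and of Mir369 and Mirlet7b for Mir23a, at 0.17 and 0.19. For Mir27b they were Mir341 and Mir671, for the Mir3074-1 model Mir32 and Mir672, for Mir24-2 Mir155 and Mir877, and for Mir27a Mir1981 and Mir5099, at 0.03 to 0.14 log2 units. These distances are Euclidean, on log2(CPM + 1), and say only that the levels are alike.

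Other genes with the seeds of the members were looked up. Apart from each other, miR-27a-3p and miR-27b-3p share bases 2 to 8 with no mature miRNA of the RefSeq table. miR-128-3p of neurons carries the same 7 bases at its positions 1 to 7. Its genes Mir128-1 and Mir128-2 stood at 756 ± 246 and 644 ± 161 CPM (SD, n = 2). It was not looked up whether miR-128-3p can be told apart between them, so these counts need not be the level of miR-128-3p. The seed of miR-24-3p recurs in miR-5124b, miR-6369, miR-6410 and miR-6413, whose genes had 0 counts in each library.

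Of the cell types in which the clusters are known, endothelial cells were represented by Mir126a at 22103 and 22365 CPM in replicates 1 and 2. In the vascular list 7 of 8 genes in the tables were detected. After Mir126a the highest was Mir143 of mural cells at 3612 ± 300 CPM (SD, n = 2). Next came Mir221 at 272 ± 46.4 CPM, Mir214 at 135 ± 0.364 CPM and Mir222 at 102 ± 16.8 CPM. The other mural marker, Mir145a, stood at 78.4 ± 2.72 CPM and Mir199a-2 at 5.55 ± 0.865 CPM. The blood list had 5 of 6 genes detected and a sum of 586 and 728 CPM, led by Mir451a of red cells at 457 ± 86.3 CPM, with Mir142b at 0 counts on its own strand. The opposite strand of the Mir142b model, where M21 places the blood-cell gene Mir142, had 979 and 1090 counts that this sum leaves out. The striated muscle list had 2 of 8 genes detected and a sum of 25.4 and 18.9 CPM. Mir1a-1, Mir133a-1 and Mir133a-2 of that list had 0 counts. In the neural list 13 of 14 genes were detected, with a sum of 18326 and 17100 CPM. Of all 1973 genes, 20.2% were detected. Mature sequences shared between genes were not looked up for these lists, so their sums and medians may leave out reads that matched several places. Of the genes in these lists, 1 was called at 2-fold between the libraries, the erythroid Mir144 with 26 and 145 counts. The median gene stood at 118 CPM in the vascular list, 53.8 in the blood list, 0.338 in the striated muscle list and 576 in the neural list, against 5148 CPM for Mir23b and 45.1 CPM for Mir27a at the ends of the members' range.

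No member differed 2-fold between the libraries, against 0.355% of the 1973 genes called at that fold (Fisher's exact test, Benjamini-Hochberg adjusted over all genes). Most of the 1973 genes were not detected, so this share is over another set of genes than the next. With no minimum fold 3 of 6 members passed the test, against 43.9% of the 399 detected genes, a share near the background. The test compares the reads of these libraries and knows counting error only. Mir23a was lower in replicate 1, at 0.798 of its CPM in replicate 2 (exact test, adjusted p = 2.69e-174), and Mir23b at 0.907 (exact test, adjusted p = 1.15e-40). The Mir3074-1 model was higher in replicate 1, by 1.14-fold (exact test, adjusted p = 0.0153), a call lost with TMM, median-of-ratios scaling and totals without Mir99a. Mir24-2, at 1.16-fold (exact test, adjusted p = 0.181), did not pass. Mir27a and Mir27b, at 1.05-fold and 1.03-fold (exact test, adjusted p = 1 each), did not pass either, and their ratios were under 1 with TMM and with median-of-ratios scaling.

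The members lay a median of 1.12-fold apart between the libraries, against 1.17-fold for all detected genes. Beside the lower Mir23a in replicate 1, the summed ratio of replicate 1 to replicate 2 was 0.988 for the endothelial marker Mir126a. It was 0.892 for the mural markers Mir143 and Mir145a and 0.745 for the erythroid markers Mir451a and Mir144. The mural sum is nearly all Mir143, at 0.889, while Mir145a stood at 1.05. The summed ratio was 0.883 for the myeloid Mir223 and 1.09 for the neuron markers, of which Mir137 is nearly all. For the 3 progenitor markers measured, of which Mir92b is the most, it was 1.21. Single neural genes went either way: of the 13 genes of the neural list with 10 or more counts in both libraries, 8 were higher in replicate 1 and 5 in replicate 2. Those 5 were Mir128-1 at 0.626, Mir9-2 at 0.655, Mir124a-2 at 0.660, Mir128-2 at 0.700 and Mir132 at 0.702. The part of these cell types in the ratios was not tested, and a difference of collection day and one of embryo cannot be told apart.

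**Figure D5:**
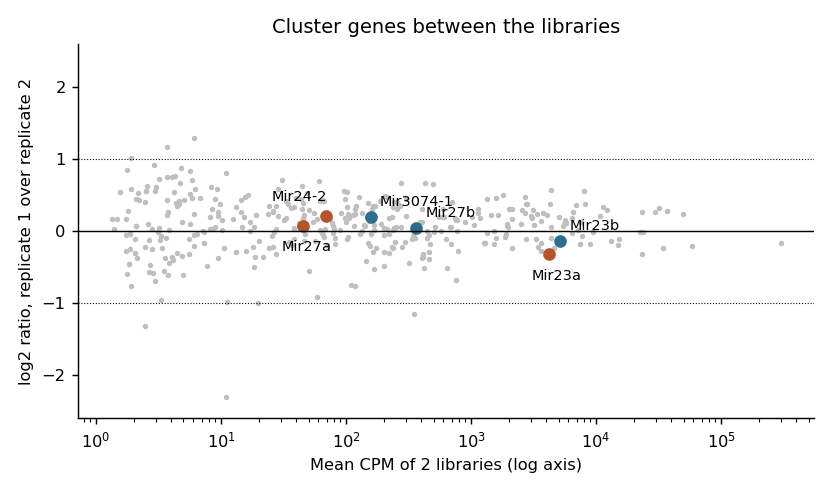
Log2 ratio of CPM, replicate 1 over replicate 2, against mean CPM (log axis) for the detected miRNA genes (grey points) and the cluster genes (orange, chromosome 8, and blue, chromosome 13); dotted lines mark a 2-fold difference. The members lie between -0.33 for Mir23a and 0.21 for Mir24-2, inside the spread of the other genes.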

How the data were processed

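The data are 2 small RNA libraries of embryonic forebrain. The values are whole-number read counts per miRNA gene as deposited by the authors, on mm10 with GENCODE M4 per the file headers in each README. For aligner and counter, the sources used here give no name. Each table has 3 count columns, for both strands together, the gene's own strand (used for all main values) and the other strand. Its 4 totals of unmapped, multi-mapping, unannotated and ambiguous reads entered neither library sizes nor tests. Each column with its totals summed to 1 number of reads per library, so a multi-mapping read is in no gene count. Names, positions and overlaps came from GENCODE M21 on the same assembly, which matched 1894 of 1973 IDs, 79 of them with another version number (Mir23b, Mir27b and Mir3074-1 among these). Mature and hairpin sequences came from RefSeq.

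CPM, ratios and Wilson or exact Poisson 95% intervals were computed with Python 3.11.15 and SciPy 1.17.1. Each gene was set against the remaining miRNA counts in a Fisher's exact test (two-sided), Benjamini-Hochberg adjusted over all 1973 genes at 0.05. The test was also run on simulated data with counting error only and with larger changes than those of the members. That run therefore says nothing of the members' small differences. TMM factors came from edgeR 4.0.16. With 1 group, no edgeR contrast exists. A floor is 3 counts, 0.424 CPM in replicate 1 and 0.378 CPM in replicate 2. Reads carry no molecular identifiers. Uniqueness was read from 1005 RefSeq hairpins, since no genome sequence was used here. The genes named are the members, the 2 genes closest in level to each, those that share a seed, and fixed lists. The members and lists were chosen with earlier results of these data known.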

Additional observations from a re-analysis of the deposited data

Results flagged for a closer look

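The counts on the opposite strand of the Mir3074-1 model, which the main levels leave out, numbered 43 in replicate 1 and 59 in replicate 2. They stand here because they are a signal outside the main measurement that exceeds the floor of 3 counts.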

How the results depend on the processing

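Of 91 values computed under alternatives that keep both libraries, 63 kept their direction and their side of the threshold or moved by less than the spread between the libraries. Some of the 63 could hardly move. Mir23a, Mir27a and Mir23b had no opposite-strand counts, so counts on either strand left their levels unchanged. TMM and median-of-ratios scaling shift the libraries in opposite directions, so levels averaged over both changed little. Leaving out a library leaves the value of the other, so those 40 values say nothing of stability. Leaving out either library kept the order of all 6 members. The summed level of the members, 10010 CPM, came to 14355 CPM with totals that leave out Mir99a and to 3834 CPM per 1000000 reads of any kind. The ratio of Mir27a to Mir27b, 0.124 in the mean, was 0.104 per hairpin base. That of Mir24-2 to the Mir3074-1 model, 0.438, was 0.422 with counts on either strand and 0.348 per hairpin base. Without the Mir3074-1 model, an alternative added after the data were seen, the ratio of the clusters was 0.785 against 0.763. Between the libraries, TMM, median-of-ratios scaling and totals without Mir99a moved all log2 ratios by -0.08, -0.11 and -0.07. The ratio of Mir27a was then 0.998 with TMM and 0.977 with median of ratios, and that of Mir27b 0.972, 0.951 and 0.979 in the order of the 3 scalings. The adjusted p of the Mir3074-1 model was 0.521, 1 and 0.384 in the same order (Fisher's exact test), and that of Mir24-2 was 0.0413 when only genes of 10 or more counts were adjusted together. Matches in the whole genome were not run. No paired analysis was possible because there is a single group. Depth limits Mir27a most, with 328 and 349 counts in replicates 1 and 2.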
